A study of Mus musculus with 14 samples.

Results

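The genes encoding the transcriptional coactivators YAP (Yap1) and TAZ (Wwtr1) were examined together with 8 genes that are widely used as readouts of their activity, namely Ctgf, Cyr61, Ankrd1, Axl, Crim1, Amotl2, Lats2 and Ajuba. They were chosen by gene name, and all 10 are present among the 35275 genes of the deposited expression table. YAP and TAZ do not bind DNA themselves. When they are in the nucleus they act through the TEAD family of DNA-binding proteins, and the Hippo kinase cascade, in which LATS1 and LATS2 are the last kinases, phosphorylates them and keeps them in the cytoplasm. Adhesion to matrix, cell density and the actin cytoskeleton all feed into this pathway, and several of its targets, such as AMOTL2, LATS2 and AJUBA, act back on it. The mRNA level of a coactivator is not a measure of its protein level or of its place in the cell, neither of which was measured here.

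The samples were mouse KMF ovarian tumor cells, which come from ID8 cells of C57Bl6 origin passaged in vivo, grown without attachment as tumorspheres for 5 days. These 5 lines were compared: unmodified parental KMF cells (n = 3), the FAK-/- clone KT13 (FAK KO, n = 3), KT13 cells with lentiviral GFP-FAK (FAK-WT, n = 3), KT13 cells with GFP-FAK-R454, a kinase-inactive FAK (FAK-R454, n = 2), and KT13 cells with a retroviral active β-catenin (β-catenin ΔGSK, n = 3). All 4 engineered lines therefore descend from 1 knockout clone, so that differences between FAK KO and KMF cells cannot be told apart from differences that came with the choice of that clone. The study's methods describe the lines made from KT13 as transduced, drug-selected and enriched by flow cytometry. No KT13 line with an empty vector is among the samples. Differences of these lines from FAK KO therefore cannot be assigned to the insert apart from those steps. The comparisons ask which of the genes differ when FAK is lost, when FAK is put back with or without kinase activity, and when β-catenin signaling is made active in the absence of FAK. Values are FPKM, in which fragments are divided by gene length and by the size of the library, so that levels of different genes can be set side by side. Pairs of lines were compared with limma on log2(FPKM + 0.1), and a gene was called higher or lower where its adjusted p over all genes tested was under 0.05. Between 25390558 and 35289859 fragments were counted on genes per library. Fak mRNA, from the gene Ptk2, was 24.3 FPKM in KMF, 19.0 in FAK KO, 15.5 in β-catenin ΔGSK, 43.4 in FAK-WT and 62.4 in FAK-R454 cells, so the knockout clone still made Ptk2 transcripts and the table does not separate edited from re-expressed copies. Of 7 markers of ovarian surface epithelium and mesothelium, 6 had a mean above 1 FPKM, with Krt7 below it. The summed level of 6 leukocyte markers did not exceed 0.0633 FPKM in any sample. That of 5 endothelial markers ran from 6.59 FPKM in a β-catenin ΔGSK sample to 30.0 FPKM in a KMF sample, nearly all of it from Tek, and its part in the results was not tested.

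Windows of the 250 bases before the annotated start were available for 9 of the 10 genes, from RefSeq on the GRCm38.p6 build. None was available for Ctgf. The TEAD word GGAATG, searched on both strands, was found in 8 of these 9 genes and was not found in the Lats2 windows. The word was present in 14.4% of 27025 genes with such windows. Both the TEAD word and the TCF/LEF word CTTTGAT, the word bound by the partners of β-catenin, were held by 3 windows, of which 2 overlap and belong to Wwtr1 and the other belongs to Amotl2. One window of each gene is shown in full because Wwtr1 and Amotl2 were the members that differed most upward in β-catenin ΔGSK cells. These genes were thus picked by their result in these data. Cyr61, Ajuba and Crim1 were also called higher over FAK KO cells there, and their windows hold no TCF/LEF word. Capitals mark the TEAD and TCF/LEF words, and CATTCC is the TEAD word read on the other strand. Both sequences are printed 5′ to 3′ on the strand of the gene, the Wwtr1 window from the minus strand of chr3:57575911-57576160 and the Amotl2 window from the plus strand of chr9:102717554-102717803.
Wwtr1: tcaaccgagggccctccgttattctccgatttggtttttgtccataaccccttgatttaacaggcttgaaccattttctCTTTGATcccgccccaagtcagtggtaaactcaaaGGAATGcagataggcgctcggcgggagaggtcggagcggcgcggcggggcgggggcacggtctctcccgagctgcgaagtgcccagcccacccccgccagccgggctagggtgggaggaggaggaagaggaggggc
Amotl2: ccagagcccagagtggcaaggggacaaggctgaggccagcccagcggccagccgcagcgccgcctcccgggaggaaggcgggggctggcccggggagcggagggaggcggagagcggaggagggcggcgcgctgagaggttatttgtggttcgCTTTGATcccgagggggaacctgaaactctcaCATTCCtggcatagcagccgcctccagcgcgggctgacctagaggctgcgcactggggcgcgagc

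In the Wwtr1 window the TCF/LEF word covers positions -171 to -165 and the TEAD word positions -136 to -131, counted from the start site, and a second annotated Wwtr1 start places the same TEAD word at -170 to -165. In the Amotl2 window the TCF/LEF word lies at -97 to -91 and the TEAD word at -65 to -60. The TCF/LEF word was present in 3.72% of genes with a window and in none of the other 7 members. The TEAD words of the remaining members are shown as stretches of 30 bases, to let their neighborhoods be compared, again 5′ to 3′ on the strand of the gene with the TEAD word in capitals. Ajuba and Ankrd1 each carry 2 copies, and 1.18% of genes with a window carried 2 or more.
Yap1, chr9:8004720-8004749: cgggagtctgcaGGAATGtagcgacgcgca
Cyr61, chr3:145650071-145650100: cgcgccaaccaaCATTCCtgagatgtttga
Ankrd1, chr19:36120037-36120066: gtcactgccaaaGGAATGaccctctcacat
Ankrd1, chr19:36119950-36119979: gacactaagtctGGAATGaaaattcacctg
Axl, chr7:25788949-25788978: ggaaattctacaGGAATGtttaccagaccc
Crim1, chr17:78200157-78200186: agggcgggggggGGAATGaggtaggatggg
Ajuba, chr14:54577830-54577859: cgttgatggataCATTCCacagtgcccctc
Ajuba, chr14:54577808-54577837: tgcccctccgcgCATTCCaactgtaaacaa

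The AP-1 word TGANTCA (7.82% of genes) and the SRF CArG box (1.62% of genes) were found in none of the 9 members. These matches describe letters in a short window and are not binding sites shown by these data, and the lack of a match says only that the letters are not in that window.

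**Figure D1:**
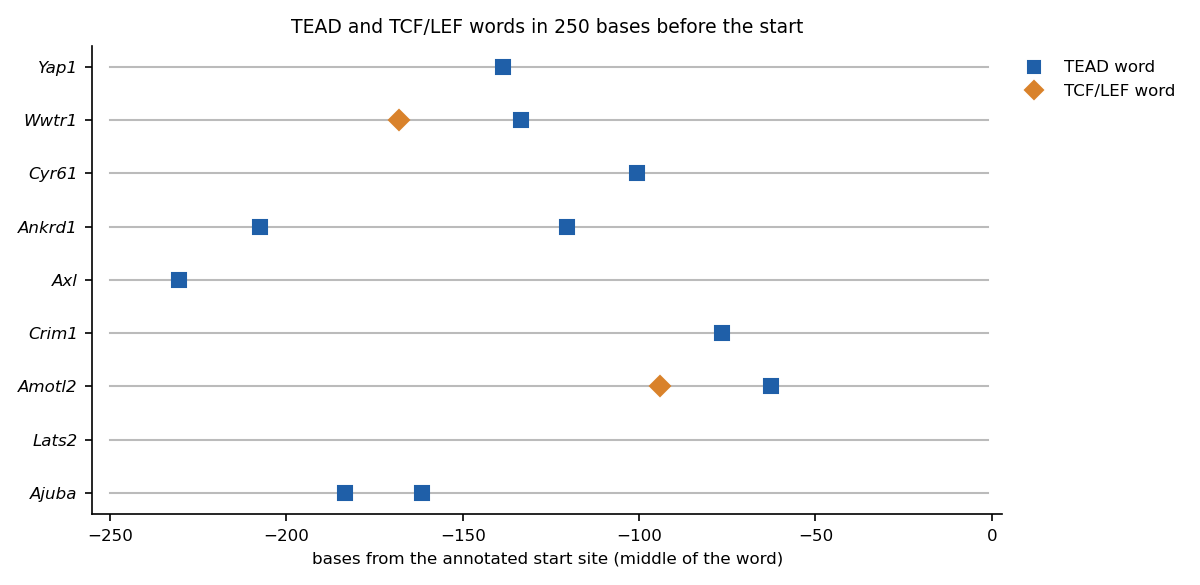
Positions of the TEAD word (blue squares) and the TCF/LEF word (orange diamonds) in the 250 bases before the first listed start site of 9 genes, with the distance from the start in bases on the x axis. The TEAD word appears in 8 genes, and Wwtr1 and Amotl2 are the ones that also hold the TCF/LEF word.

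The 10 genes spanned a wide range of levels. Axl, which encodes a receptor tyrosine kinase for GAS6, had the highest mean over the 14 samples, at 230.4 FPKM, above 97.9% of the 12256 expressed genes. Crim1, a transmembrane protein that binds bone morphogenetic proteins, followed at 48.4 FPKM. Wwtr1 and Yap1 had similar means over all samples, at 26.5 and 24.8 FPKM. The secreted matricellular proteins were lower, with 9.43 FPKM for Cyr61 and 6.73 FPKM for Ctgf. Ankrd1, a nuclear ankyrin-repeat protein best known from muscle, was the lowest at 2.47 FPKM and rested on as few as 70 fragments in a library. Ctgf varied most between lines, with a ratio of 5.40 between its highest and lowest line mean, and Yap1 varied least, with a ratio of 1.19.

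**Figure D2:**
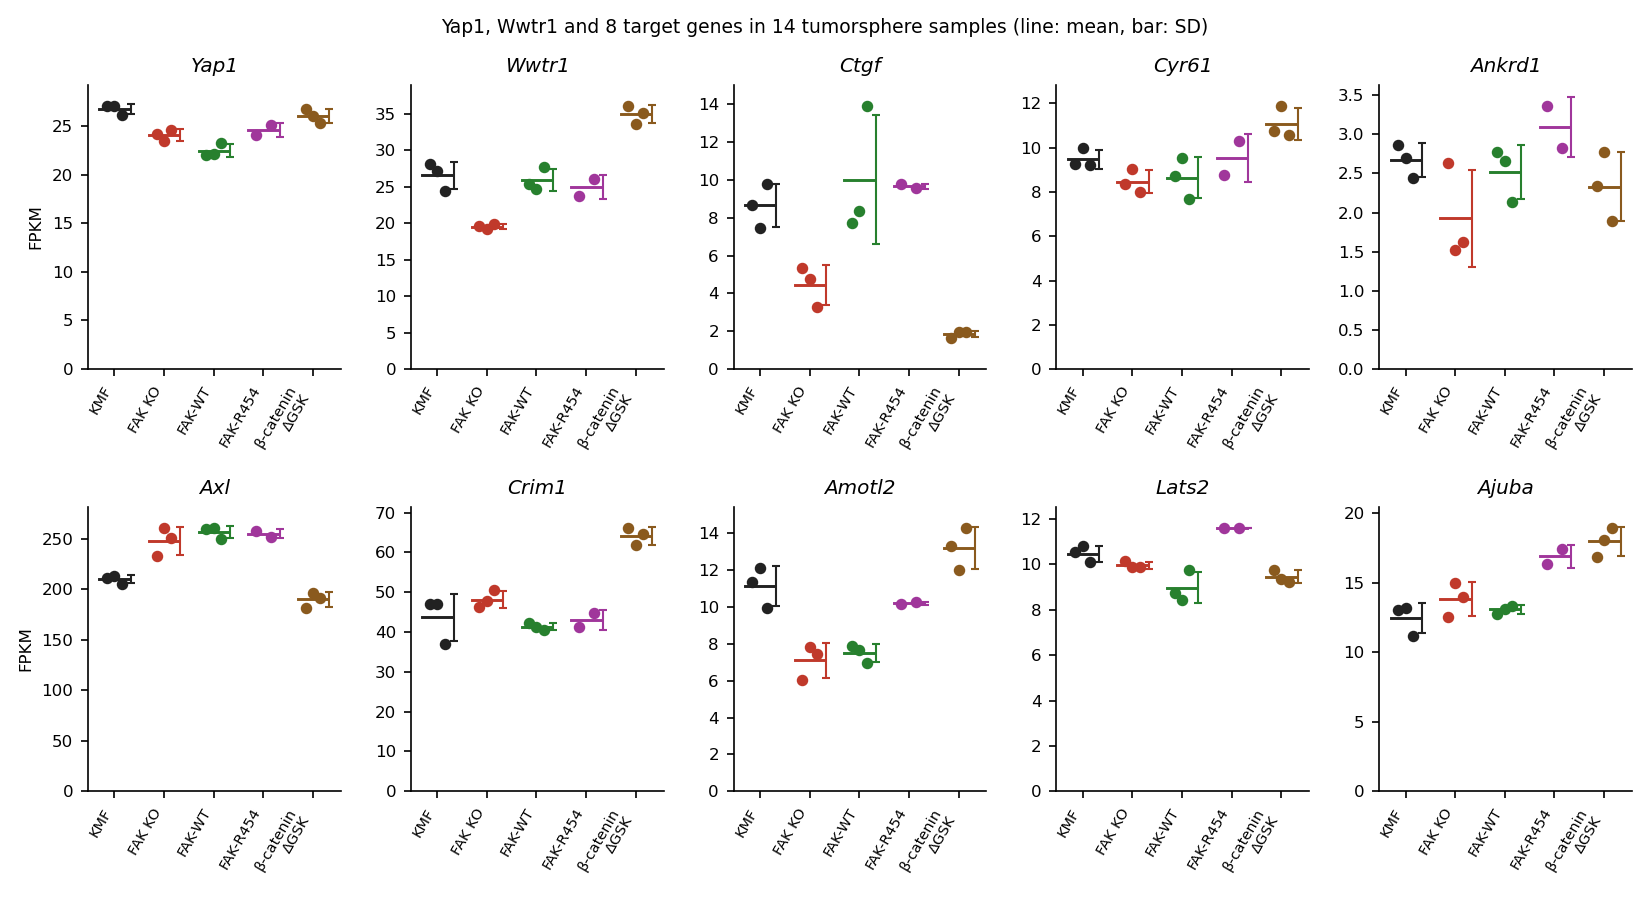
FPKM (y axis, from 0, a scale of its own for each gene) of the 10 genes in each sample of the 5 lines (x axis), with the line mean as a horizontal bar and the SD beside it. Ctgf is lowest in β-catenin ΔGSK cells, between 1.64 and 1.98 FPKM, Wwtr1 is lowest in FAK KO cells, between 19.2 and 19.8 FPKM, and Yap1 stays between 21.99 and 27.1 FPKM in every sample.

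Yap1 (ENSMUSG00000053110, chr9:7931999-8004596) was nearly level across the lines. It measured 27.1, 27.0 and 26.2 FPKM in KMF cells, 24.1, 23.4 and 24.6 in FAK KO cells, 21.99, 22.2 and 23.3 with FAK-WT, 24.1 and 25.1 with FAK-R454, and 26.8, 26.0 and 25.4 in β-catenin ΔGSK cells. KMF and β-catenin ΔGSK samples overlapped at the top of this order, FAK-R454 and FAK KO samples overlapped in the middle, and the FAK-WT samples lay below all others. In bulk samples, less RNA per cell and fewer cells of a type cannot be told apart. Of the 6 comparisons Yap1 was called in 1, being lower in FAK-WT than in KMF cells at -0.25 on the log2 scale (standard error, SE, 0.05, adjusted p = 0.00643, limma). Genes of chromosome 9 were lower as a whole in that comparison. Their median lay 0.23 on the log2 scale below that of genes on the other chromosomes (a shift of -0.23). With each chromosome centred on its own median the Yap1 difference was -0.12 (adjusted p = 0.131, limma). In FAK KO versus KMF the difference was -0.15 (adjusted p = 0.0521, limma), just outside the threshold. It was called in 5 alternatives, among them the fit without KMF sample 3 (-0.17, adjusted p = 0.0484, limma). With chromosomes centred it was -0.048 and not called (adjusted p = 0.553, limma). The median of chromosome 9 was -0.13 in this comparison, whereas the 18 tested genes within 5 megabases of Yap1 had a median of 0.11. In FAK-WT versus KMF the genes of that window had a median of -0.28. Without FAK-WT sample 3, Yap1 was also called lower in FAK-WT than in FAK-R454 (-0.16, adjusted p = 0.0341, limma), in a fit that called 3312 genes in all. The intervals in the other comparisons were narrow, for example -0.23 to 0.04 for FAK-WT versus FAK KO and -0.11 to 0.18 for FAK-R454 versus FAK KO (95% confidence, log2 scale). Between β-catenin ΔGSK and FAK KO cells the Yap1 difference of 0.11 was not called (adjusted p = 0.140, limma), but it was 0.22 (adjusted p = 0.0157, limma) when samples were scaled by the median of ratios, which moved the median of all genes from -0.09 to 0.01.

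Wwtr1 (ENSMUSG00000027803, chr3:57455649-57575910), the gene for TAZ, varied more between the lines than Yap1. It measured 28.1, 27.1 and 24.5 FPKM in KMF cells and 19.6, 19.2 and 19.8 FPKM in FAK KO cells. With FAK put back it measured 25.4, 24.7 and 27.7 FPKM, and with kinase-inactive FAK-R454 23.8 and 26.1 FPKM. With active β-catenin it measured 36.1, 33.6 and 35.1 FPKM. The FAK KO samples were therefore below every other sample, the β-catenin ΔGSK samples were above every other sample, and KMF, FAK-WT and FAK-R454 samples overlapped in between. The log2 fold change over FAK KO cells was 0.41 in FAK-WT cells (SE 0.07, adjusted p = 0.00237), 0.35 in FAK-R454 cells (SE 0.07, adjusted p = 0.0119) and 0.84 in β-catenin ΔGSK cells (SE 0.06, adjusted p = 8.82e-06, all limma). Between FAK-WT and FAK-R454 cells the difference was 0.06, with a 95% interval from -0.12 to 0.23, and the groups overlapped. With either FAK-R454 sample left out, the log2 fold change over FAK KO cells was 0.42 (without sample 1) or 0.28 (without sample 2). In these fits the 1 remaining FAK-R454 sample is assumed to vary like the FAK KO samples, and only 548 and 609 genes were called in all, against 2325 with both samples. Wwtr1 was not among them (adjusted p = 0.0657 and 0.165, limma), which says little about this gene.

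The lower Wwtr1 level in FAK KO than in KMF cells, a log2 fold change of -0.44 (SE 0.07, adjusted p = 0.000985, limma), ran together with chromosome 3. The median of its 572 tested genes was -0.21 on the log2 scale, where that of all genes was 0.05. The 28 tested genes within 5 megabases of Wwtr1 had a median of -0.22. After centring each chromosome the Wwtr1 difference was -0.16 and no longer called (adjusted p = 0.0910, limma). The same setting turned the difference between FAK-WT and KMF cells from -0.03 to 0.29 (adjusted p = 0.0251, limma), with chromosome 3 shifted by -0.31 between those lines. The comparisons of the 3 lines made from the knockout with FAK KO cells kept their Wwtr1 calls after centring, for instance at 0.46 in FAK-WT versus FAK KO.

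Ctgf (ENSMUSG00000019997, chr10:24595442-24598683) encodes connective tissue growth factor, a secreted matricellular protein and the most commonly used YAP and TAZ readout. It measured 8.69, 7.48 and 9.76 FPKM in KMF cells, 5.32, 4.76 and 3.26 in FAK KO cells, 7.73, 8.36 and 13.9 with FAK-WT, 9.76 and 9.57 with FAK-R454, and 1.64, 1.98 and 1.94 in β-catenin ΔGSK cells. The counts behind these values ran from 116 fragments in a β-catenin ΔGSK library to 1089 in a FAK-WT library. KMF, FAK-WT and FAK-R454 samples overlapped at the top, FAK KO samples lay below all of them, and β-catenin ΔGSK samples lay below FAK KO. Relative to KMF cells, Ctgf in FAK KO cells fell by 0.96 on the log2 scale (SE 0.18, adjusted p = 0.00211, limma), a change larger in size than that of 91.3% of genes tested. It rose by 1.13 over FAK KO cells when FAK-WT was put back (SE 0.24, adjusted p = 0.00787) and likewise by 1.13 with FAK-R454 (SE 0.18, adjusted p = 0.00484, both limma). FAK-WT and FAK-R454 cells themselves differed by 0.00, with a 95% interval from -0.60 to 0.60 in which the third FAK-WT sample, at 13.9 FPKM, stood apart from the other two. Without that sample the difference was -0.26 (adjusted p = 0.0187, limma), with FAK-WT lower. The fit without it called 3312 genes in all, against 921 with it.

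In β-catenin ΔGSK cells Ctgf fell by a further 1.19 below FAK KO cells on the log2 scale (SE 0.18, adjusted p = 0.000556, limma), to a mean of 1.85 ± 0.184 FPKM (SD, n = 3) against 4.45 ± 1.07 FPKM (SD, n = 3). This was the direction opposite to that of Wwtr1, which rose in the same samples. The Ctgf calls in the 4 comparisons that gave one were kept under every alternative run.

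Cyr61 (ENSMUSG00000028195, chr3:145646971-145649985), the closest relative of Ctgf in this list and likewise secreted, had a different pattern. It measured 9.25, 9.98 and 9.22 FPKM in KMF cells, 8.37, 9.02 and 8.01 in FAK KO cells, 8.71, 9.55 and 7.68 with FAK-WT, 8.75 and 10.3 with FAK-R454, and 10.7, 11.9 and 10.6 in β-catenin ΔGSK cells. The β-catenin ΔGSK samples were above all others, and FAK-R454, KMF, FAK-WT and FAK KO samples overlapped as neighbors in that order. Over FAK KO cells Cyr61 rose by 0.38 on the log2 scale in β-catenin ΔGSK cells (SE 0.08, adjusted p = 0.00411, limma), while Ctgf fell in the same comparison. Putting FAK back gave a Cyr61 difference of 0.03 (95% interval from -0.19 to 0.24), which does not reach the 1.13 measured for Ctgf. The difference between FAK KO and KMF cells was -0.16 (adjusted p = 0.1002, limma). It was called with the median of ratios as the scale (-0.21, adjusted p = 0.0482, limma) and without FAK KO sample 2 (adjusted p = 0.0480, limma), and it was 0.11 after chromosome centring.

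Ankrd1 (ENSMUSG00000024803, chr19:36111965-36119844) was low throughout and variable. Its values were 2.87, 2.70 and 2.44 FPKM in KMF cells, 2.63, 1.52 and 1.62 in FAK KO cells, 2.77, 2.66 and 2.13 with FAK-WT, 3.37 and 2.83 with FAK-R454, and 2.34, 2.77 and 1.89 in β-catenin ΔGSK cells. Every line overlapped its neighbor in the order of means, and Ankrd1 was called by limma in none of the 6 comparisons, with an unadjusted p under 0.05 in FAK KO versus KMF (0.0344) and in FAK-R454 versus FAK KO (0.0149). Its difference between FAK-R454 and FAK KO cells was 0.69, with a 95% interval from 0.18 to 1.21 (adjusted p = 0.0646, limma). With chromosomes centred, Ankrd1 was called lower in FAK KO than in KMF cells (-0.70, adjusted p = 0.0290, limma). One FAK KO sample, the first, stood at the level of the other lines. Without it, Ankrd1 was called lower in FAK KO than in KMF cells (-0.73, adjusted p = 0.00300), and called higher than FAK KO in FAK-WT cells (0.64, adjusted p = 0.0245), FAK-R454 cells (0.93, adjusted p = 0.00448) and β-catenin ΔGSK cells (0.53, adjusted p = 0.0417, all limma).

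The surface proteins had the highest levels. Axl (ENSMUSG00000002602, chr7:25757273-25788705) measured 211.1, 213.0 and 205.7 FPKM in KMF cells, 232.8, 260.6 and 250.5 in FAK KO cells, 259.7, 261.0 and 250.3 with FAK-WT, 258.1 and 252.1 with FAK-R454, and 181.9, 196.9 and 191.6 in β-catenin ΔGSK cells. FAK KO, FAK-WT and FAK-R454 samples overlapped at the top, KMF samples lay below them, and β-catenin ΔGSK samples were the lowest. Axl was higher in FAK KO than in KMF cells by 0.24 on the log2 scale (SE 0.07, adjusted p = 0.0157) and higher in FAK-WT than in KMF cells by 0.29 (SE 0.06, adjusted p = 0.00513, both limma). The first of these was lost without KMF sample 1 (0.24, adjusted p = 0.0556) or FAK KO sample 3 (0.23, adjusted p = 0.0688) and with median-of-ratios scaling (0.19, adjusted p = 0.0529, all limma), while after chromosome centring it was 0.37 (adjusted p = 0.00152, limma). Putting FAK back into the knockout gave 0.05 (95% interval from -0.10 to 0.20), and the FAK-WT samples stayed above all KMF samples. In β-catenin ΔGSK cells Axl fell by 0.38 below FAK KO cells (SE 0.07, adjusted p = 0.00119, limma).

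Crim1 (ENSMUSG00000024074, chr17:78200248-78376592) was highest with active β-catenin, at 66.2, 61.8 and 64.5 FPKM. It measured 47.1, 47.0 and 36.9 FPKM in KMF cells, 46.3, 47.7 and 50.4 in FAK KO cells, 42.3, 41.3 and 40.4 with FAK-WT, and 41.2 and 44.8 with FAK-R454. The β-catenin ΔGSK samples did not overlap any others, whereas KMF samples overlapped those of FAK KO, FAK-R454 and FAK-WT cells. Over FAK KO cells Crim1 rose by 0.41 on the log2 scale in β-catenin ΔGSK cells (SE 0.06, adjusted p = 0.000589, limma). In FAK-WT cells Crim1 fell by 0.22 below FAK KO cells (SE 0.06, adjusted p = 0.0205, limma), against the direction of Ctgf and Wwtr1 in the same comparison. That smaller call was lost without FAK KO sample 3 (-0.19, adjusted p = 0.105), without FAK-WT sample 2 (-0.22, adjusted p = 0.0777) and with median-of-ratios scaling (-0.15, adjusted p = 0.0694, all limma). Chromosome 17 as a whole was shifted by 0.25 between these lines, and after centring the Crim1 difference was -0.40. The 33 tested genes within 5 megabases of Crim1 had a median of -0.03 in this comparison and of -0.16 in FAK KO versus KMF. In FAK KO versus KMF Crim1 was at 0.15 (adjusted p = 0.235), and with chromosome 17 shifted by -0.27 there it was 0.39 and called after centring (adjusted p = 0.0167, both limma). Without KMF sample 3, the lowest of its line, Crim1 was also called lower in FAK-WT than in KMF cells (-0.19, adjusted p = 0.0171, limma).

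Amotl2, Lats2 and Ajuba encode proteins that restrain or tune the pathway as well as being targets of it. Amotl2 (ENSMUSG00000032531, chr9:102716672-102733418), an angiomotin family member that binds YAP and TAZ, measured 11.4, 12.1 and 9.96 FPKM in KMF cells, 6.03, 7.85 and 7.46 in FAK KO cells, 7.89, 7.64 and 6.98 with FAK-WT, 10.2 and 10.3 with FAK-R454, and 13.3, 12.03 and 14.3 in β-catenin ΔGSK cells. FAK-WT and FAK KO samples overlapped at the bottom and did not overlap the FAK-R454, KMF and β-catenin ΔGSK samples. Amotl2 fell by 0.65 on the log2 scale from KMF to FAK KO cells (SE 0.11, adjusted p = 0.00188) and was also lower in FAK-WT than in KMF cells, at -0.56 (SE 0.09, adjusted p = 0.00232, both limma). With kinase-inactive FAK-R454 it was higher than in FAK KO cells by 0.52 (SE 0.12, adjusted p = 0.0173, limma), whereas FAK-WT versus FAK KO gave 0.08 (95% interval from -0.16 to 0.33). The direct difference between FAK-WT and FAK-R454 cells was -0.44 (SE 0.07, adjusted p = 0.0241, limma). In β-catenin ΔGSK cells Amotl2 rose by 0.89 over FAK KO cells (SE 0.11, adjusted p = 0.000217, limma), the largest rise among the 10 genes in that comparison.

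Lats2 (ENSMUSG00000021959, chr14:57642077-57758388), one of the kinases that phosphorylate YAP and TAZ, measured 10.5, 10.8 and 10.1 FPKM in KMF cells, 10.1, 9.89 and 9.87 in FAK KO cells, 8.73, 8.43 and 9.76 with FAK-WT, 11.6 and 11.6 with FAK-R454, and 9.77, 9.37 and 9.21 in β-catenin ΔGSK cells. FAK-R454 samples lay above all others and FAK-WT samples overlapped those of β-catenin ΔGSK at the bottom. Between FAK-WT and FAK-R454 cells Lats2 gave a log2 fold change of -0.37, with FAK-WT lower (SE 0.08, adjusted p = 0.0433) and for FAK-WT versus KMF it gave -0.22 (SE 0.07, adjusted p = 0.0414, both limma). After chromosome centring the first was -0.31 and not called (adjusted p = 0.0738, limma). Both calls lie close to the threshold and were lost without the filter on low genes (adjusted p = 0.0725 and 0.0616) and with median-of-ratios scaling (adjusted p = 0.0724 and 0.0751, all limma). The call against KMF was also lost without KMF sample 1 (-0.22, adjusted p = 0.111), KMF sample 2 (-0.20, adjusted p = 0.122), FAK-WT sample 1 (-0.20, adjusted p = 0.116) or FAK-WT sample 2 (-0.18, adjusted p = 0.143, all limma). Without FAK-WT sample 3, the FAK-WT versus FAK KO difference of Lats2 was called as well (-0.21, adjusted p = 0.0426, limma).

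Ajuba (ENSMUSG00000022178, chr14:54567469-54577661), a LIM-domain protein that binds LATS kinases, measured 13.0, 13.1 and 11.2 FPKM in KMF cells, 12.5, 14.99 and 13.99 in FAK KO cells, 12.7, 13.1 and 13.3 with FAK-WT, 16.3 and 17.4 with FAK-R454, and 16.9, 18.1 and 18.9 in β-catenin ΔGSK cells. FAK-R454 and β-catenin ΔGSK samples formed the upper level, and the FAK KO, FAK-WT and KMF samples overlapped below. Ajuba gave -0.37 for FAK-WT versus FAK-R454 (SE 0.06, adjusted p = 0.0208), and rose by 0.38 over FAK KO cells in β-catenin ΔGSK cells (SE 0.09, adjusted p = 0.00546, both limma). With chromosomes centred the latter was 0.22 (adjusted p = 0.0717, limma).

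The calls of these regulators that involve FAK-R454 rest on 2 samples. Amotl2 in FAK-R454 versus FAK KO was not called without FAK-R454 sample 1 (0.53, adjusted p = 0.126), without sample 2 (0.52, adjusted p = 0.115), fits that again leave 1 sample in that line, or without the filter on low genes (adjusted p = 0.0559, all limma). In FAK-WT versus FAK-R454, fits with 1 FAK-R454 sample take the spread from the FAK-WT samples alone and called 7 and 8 genes in all, against 921 with both samples, so they have little power for single genes. The log2 fold changes of Amotl2, Lats2 and Ajuba in them stayed between -0.45 and -0.32. Leaving out FAK-WT sample 2 gave fold changes of -0.45, -0.33 and -0.37 for Amotl2, Lats2 and Ajuba, none of them called (adjusted p = 0.0917, 0.143 and 0.0936, limma), in a fit that called 157 genes in all. Leaving out FAK-WT sample 1 kept the call of Amotl2 alone, with 334 genes called in all. In FAK-R454 versus FAK KO, Lats2 (0.22, adjusted p = 0.0597) and Ajuba (0.29, adjusted p = 0.0566, both limma) lay just outside the threshold. Both were called without FAK KO sample 2 (adjusted p = 0.0455 and 0.0105, limma), in a fit that called 4390 genes in all, against 2325 with that sample.

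**Figure D3:**
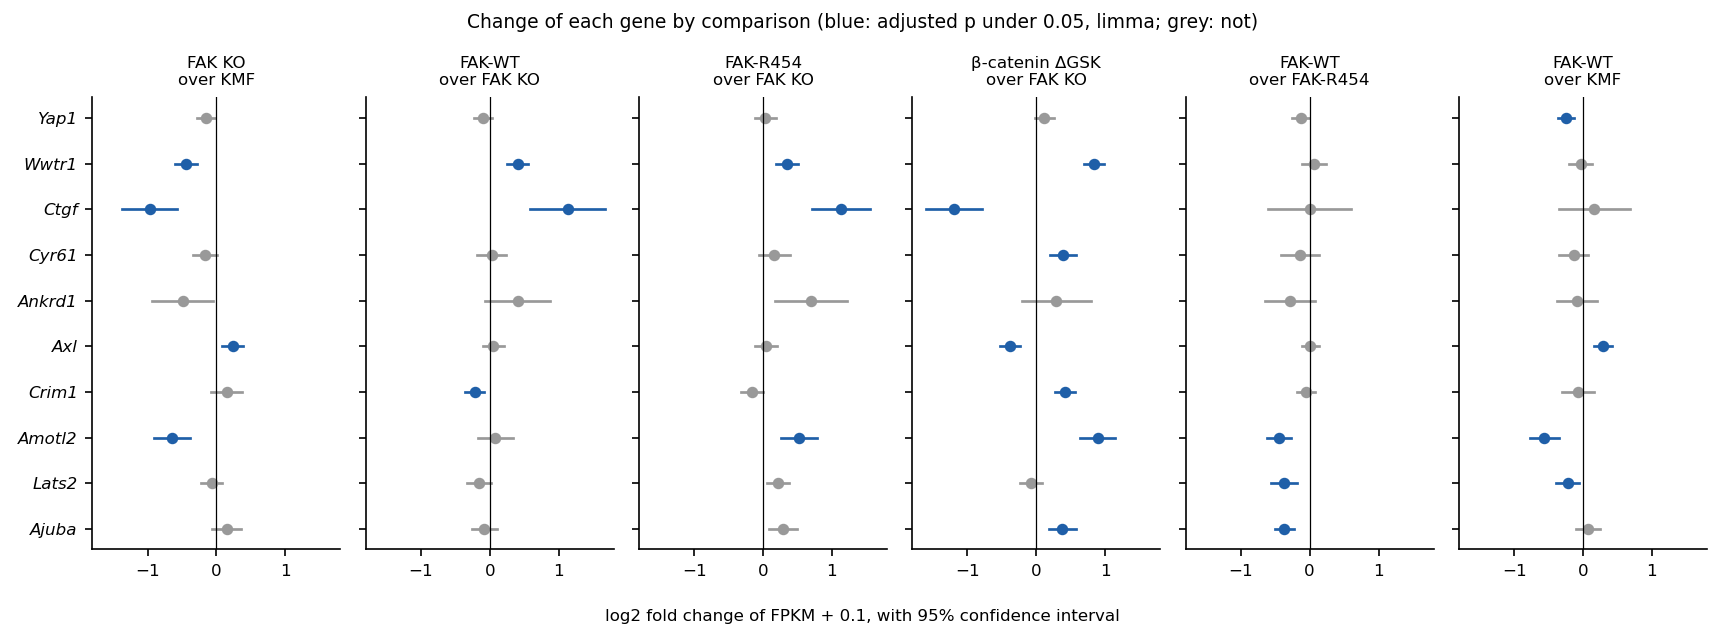
Log2 fold change of FPKM + 0.1 (x axis, with 95% confidence interval) of each gene (y axis) in 6 comparisons, blue where the adjusted p from limma was under 0.05. Ctgf is at -0.96 in FAK KO versus KMF, at 1.13 in FAK-WT and in FAK-R454 versus FAK KO, and at -1.19 in β-catenin ΔGSK versus FAK KO, while Wwtr1 is at 0.84 in the last of these.

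By comparison, Ctgf, Amotl2 and Wwtr1 were lower and Axl was higher in the knockout clone than in KMF cells, and the Amotl2 and Axl differences from KMF were also called in the clone with FAK-WT put back. In FAK KO versus KMF 1 of the 10 genes was called higher and 3 lower, where 51.8% of 11893 genes tested were called, 28.7% as higher and 23.1% as lower. Their median log2 fold change was -0.16, against 0.05 for all genes. In a background this broad, 4 calls among 10 genes are no more than the share of all genes. Of the 6 epithelium and mesothelium markers tested in this comparison, 1 was called higher and 2 lower, and their part in the results was not tested.

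With FAK put back, Wwtr1 and Ctgf rose and Crim1 fell, which makes 3 calls in FAK-WT versus FAK KO where 40.8% of 11841 genes were called, 15.6% as higher and 25.2% as lower. The median change of the 10 genes was 0.04 and that of all genes -0.08. The ovarian surface epithelium and mesothelium markers also differed here, with 5 of 6 tested called higher and 0 lower, a median of 0.63 and a summed level of 1569 to 1809 FPKM in FAK-WT against 1068 to 1250 FPKM in FAK KO samples. In FAK-R454 versus FAK KO 2 of these 6 were called higher and 0 lower, with Upk3b, a uroplakin, at 2.96 and a summed level of 1257 to 1294 FPKM, and in β-catenin ΔGSK versus FAK KO 3 were called higher and 2 lower, with a sum of 1218 to 1399 FPKM. Their part in the results was not tested. The Ctgf change was larger in size in FAK-WT versus FAK KO than that of 96.4% of the genes, and larger than that of 97.8% with FAK-R454. With kinase-inactive FAK, Wwtr1, Ctgf and Amotl2 rose and none fell. These 3 calls in FAK-R454 versus FAK KO stand against 19.7% of 11818 genes called, with 9.78% higher and 9.89% lower, and the median was 0.25 against -0.03 for all genes. Since both comparisons share the FAK KO samples, their likeness is not independent evidence, and the direct comparison is the one that separates the lines. In FAK-WT versus FAK-R454, 7.82% of 11782 genes were called, 3.38% as higher and 4.44% as lower, and the 3 members called, Amotl2, Lats2 and Ajuba, were all lower in FAK-WT cells. Of the 6 epithelium and mesothelium markers 4 were called higher and 1, Upk3b at -2.09, lower in the same comparison, with a median of 0.37, and their part in it was not tested. The median of the 10 genes there was -0.14 and that of all genes -0.05.

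In β-catenin ΔGSK versus FAK KO 5 genes rose (Wwtr1, Cyr61, Amotl2, Ajuba and Crim1) and 2 fell (Ctgf and Axl), where 58.1% of 11915 genes were called, 23.7% as higher and 34.4% as lower. The 7 calls among 10 genes are thus near the share of all genes. The median change was 0.33 in the 10 genes and -0.09 in all genes. The Ctgf fall was larger in size than the change of 90.8% of genes tested. Yap1, Ankrd1 and Lats2 were not called, and Lats2, at -0.08, was 0.02 with median-of-ratios scaling and -0.23 with chromosomes centred, where it was called lower (adjusted p = 0.0172, limma). In FAK-WT versus KMF, which sets the reconstituted clone beside the parental line, Axl was higher and Amotl2, Yap1 and Lats2 were lower, where 41.6% of 11847 genes were called, 18.2% as higher and 23.5% as lower. In that comparison Ctgf differed by 0.17 (95% interval from -0.34 to 0.68) and Wwtr1 by -0.03 (95% interval from -0.20 to 0.14), and the values of both genes overlapped between the lines. Of the 6 epithelium and mesothelium markers tested there, 3 were called higher and 0 lower, with a median of 0.41 against -0.04 for all genes. Their summed level was 1569 to 1809 FPKM in FAK-WT against 1173 to 1203 FPKM in KMF samples. Their part in the results was not tested.

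Other genes of the pathway were taken as lists. Among 15 Hippo kinases and upstream regulators tested, 5 were called higher and 3 lower in FAK KO versus KMF, where 28.7% and 23.1% of all genes were. In FAK-WT versus FAK KO 1 was called higher and 5 lower (15.6% and 25.2% of all genes), in FAK-R454 versus FAK KO 0 and 2 (9.78% and 9.89%), and in β-catenin ΔGSK versus FAK KO 2 and 3 (23.7% and 34.4%). Mob1b, a coactivator of the LATS kinases, had its highest mean in the knockout clone. It was 13.4 ± 2.04 FPKM in FAK KO cells (SD, n = 3), 7.69 in KMF, 9.40 in β-catenin ΔGSK, 7.56 in FAK-WT and 8.39 in FAK-R454 cells. The log2 fold change of Mob1b was 0.78 in FAK KO versus KMF. Against FAK KO it was -0.52 in β-catenin ΔGSK, -0.66 in FAK-R454 and -0.81 in FAK-WT cells, and all 4 were called (adjusted p from 0.000395 to 0.0224, limma). These 4 comparisons share the FAK KO samples and are not independent, and the highest β-catenin ΔGSK sample, at 11.86 FPKM, lay above the lowest FAK KO sample, at 11.54 FPKM. Wwc1, which encodes the upstream activator KIBRA, rose by 0.37 in FAK-WT and by 0.89 in β-catenin ΔGSK versus FAK KO (adjusted p = 0.0324 and 0.000232, limma). Lats1, the other LATS kinase, fell by 0.37 in FAK-WT below FAK KO cells (adjusted p = 0.0151, limma).

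Of 13 regulators that bind YAP and TAZ, 8 were called higher and 1 lower with active β-catenin over FAK KO cells, where 23.7% of all genes were called higher and 34.4% lower. Their median was 0.36 against -0.09 for all genes. Amotl2 and Ajuba are among them. Amot, the founding angiomotin, measured 2.96 ± 0.0685 FPKM in FAK KO cells (SD, n = 3) and rose with active β-catenin to 13.5 ± 0.720 FPKM (SD, n = 3), or by 2.15 on the log2 scale (SE 0.08, adjusted p = 1.61e-07, limma). Amot and Amotl2 moved together also in FAK-R454 versus FAK KO, where Amot rose by 0.69 (adjusted p = 0.00265), and in FAK-WT versus FAK-R454, where it was at -0.81 (adjusted p = 0.0168, both limma). In FAK KO versus KMF Amot and Amotl2 went opposite ways, with Amot higher by 0.96 (adjusted p = 0.000295) and Amotl2 lower by 0.65 (a log2 fold change of -0.65, adjusted p = 0.00188, both limma). They also did so in FAK-WT versus KMF, at 0.83 for Amot (adjusted p = 0.00235) and -0.56 for Amotl2 (adjusted p = 0.00232, both limma). Amotl1, another angiomotin of the list, was called lower in FAK KO versus KMF, at -0.20 (adjusted p = 0.0453, limma). With active β-catenin over FAK KO cells Amotl1 was called higher, at 0.59 (adjusted p = 8.51e-05, limma). Tjp1, a tight junction scaffold, was the 1 gene of this list that was called lower with active β-catenin, by 0.68 (adjusted p = 0.000170, limma). In FAK-WT versus FAK KO 1 of the 13 was called higher and 2 lower, against 15.6% and 25.2% of all genes, and in FAK-R454 versus FAK KO 2 were called higher and 0 lower, against 9.78% and 9.89%.

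The TEAD partners were expressed at low to moderate levels. Mean FPKM in FAK KO cells was 5.77 for Tead1, 5.39 for Tead3 and 3.62 for Tead4, and Tead2 stayed below 1 FPKM in the mean of every line. Tead4 was lower in FAK KO than in KMF cells by a log2 fold change of -0.60 (adjusted p = 0.000544) and rose by 0.48 in FAK-WT versus FAK KO (adjusted p = 0.00475, both limma). Set directly against FAK-R454, the FAK-WT cells were higher by 0.62 (adjusted p = 0.0197, limma). Tead3 rose by 0.57 in FAK-WT and 0.43 in FAK-R454 versus FAK KO (adjusted p = 0.00413 and 0.0273) and fell by 0.37 in β-catenin ΔGSK cells (adjusted p = 0.0455, all limma). Vgll3, a Vestigial-like cofactor that binds TEAD proteins in place of YAP and TAZ, measured 1.86 ± 0.152 FPKM in FAK KO cells (SD, n = 3), 0.526 ± 0.0723 in FAK-WT cells (SD, n = 3) and 2.59 ± 0.0825 in FAK-R454 cells (SD, n = 2), and the log2 fold change of FAK-WT versus FAK-R454 was -2.11 (SE 0.17, adjusted p = 0.00357, limma). In β-catenin ΔGSK versus FAK KO both Vgll3 and Tead4 fell, by 1.01 and 0.32 on the log2 scale (adjusted p = 0.000588 and 0.0227, limma). Vgll4, a TEAD-binding repressor, rose by 0.92 in β-catenin ΔGSK versus FAK KO (adjusted p = 4.48e-06, limma).

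A signature of 22 conserved YAP and TAZ targets holds 7 of the 10 genes. In FAK-R454 versus FAK KO 6 of 21 tested were called higher and 0 lower, where 9.78% and 9.89% of all genes were, with a median of 0.17 against -0.03 for all genes. With the members left out, 4 of 14 were called higher and 0 lower there, and the median was 0.055. In FAK-WT versus FAK KO 4 of 21 were called higher and 3 lower, with a median of 0.05 against -0.08, and these 7 calls are no more than the 40.8% of all genes called. In FAK KO versus KMF 5 of 21 were higher and 6 lower, close to the 51.8% of all genes called. In FAK-WT versus FAK-R454 2 of 21 were called higher and 2 lower, where 3.38% and 4.44% of all genes were. The signature median was -0.07 there, against -0.05 for all genes. The 2 lower were the members Amotl2 and Lats2. With the members left out, 2 of 14 were called higher and 0 lower, with a median of -0.06. In β-catenin ΔGSK versus FAK KO all 22 were tested, and 11 were called higher and 7 lower, where 23.7% and 34.4% of all genes were, with a median of 0.30 against -0.09. Without the members, 8 of 15 were called higher and 5 lower in this last comparison. The list did not move as a block there. Gadd45a, a stress-response gene, fell from 85.5 ± 4.97 to 5.59 ± 0.180 FPKM (SD, n = 3 for both lines), which is -3.91 on the log2 scale (adjusted p = 2.66e-09), and Nt5e, which encodes the surface enzyme CD73, fell by 1.37 (adjusted p = 7.61e-05, both limma), whereas the forkhead gene Foxf2 rose by 1.29 (adjusted p = 4.14e-06, limma). Igfbp3, an insulin-like growth factor binding protein, was higher in FAK KO than in KMF cells by 2.63 (adjusted p = 0.000115, limma) while Ctgf was lower.

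**Figure D4:**
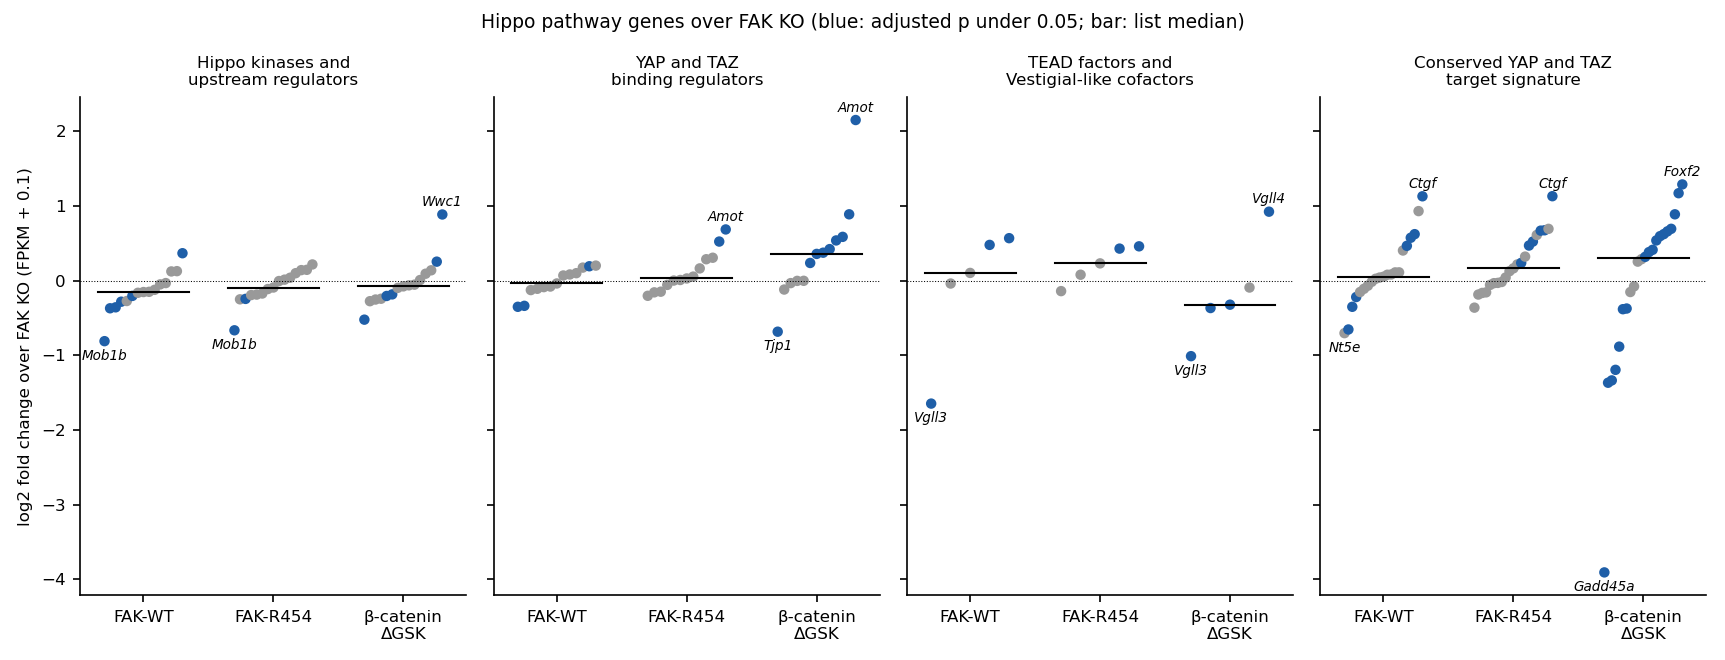
Log2 fold change of FPKM + 0.1 over FAK KO cells (y axis) for each tested gene of 4 pathway lists in the 2 lines with FAK put back and in β-catenin ΔGSK cells (x axis), blue where the adjusted p from limma was under 0.05, with the list median as a bar. In β-catenin ΔGSK cells the list labeled binding regulators has a median of 0.36, with Amot at 2.15. The target signature spreads from -3.91 for Gadd45a to 1.29 for Foxf2.

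Across the 14 samples, which come from 5 lines and so are not independent points, some members varied together. Pearson's r of log2 values, given as a description, was 0.79 between Wwtr1 and Amotl2, 0.79 between Cyr61 and Amotl2 and 0.72 between Ajuba and Crim1. Ctgf ran against Crim1, with r at -0.94, and was at -0.57 with Cyr61 and -0.42 with Wwtr1. Wwtr1 was highest and Ctgf lowest in the β-catenin ΔGSK samples, whereas among the other 4 lines both genes were lowest in FAK KO cells. Axl ran against Yap1, with r at -0.80. Among 12255 expressed genes the patterns most like that of Ctgf were those of Fbln2, Gprc5b and S100a16, each with r at 0.98. Those most like Wwtr1 were Cers6, Fam96b and Ybx3, each with r at 0.97. For Yap1 they were Celf2 (0.92), Tbx18 (0.91) and Mrpl15 (0.91), and for Cyr61 they were Pomgnt1 (0.89), Nos1ap (0.87) and Dlgap5 (0.86).

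**Figure D5:**
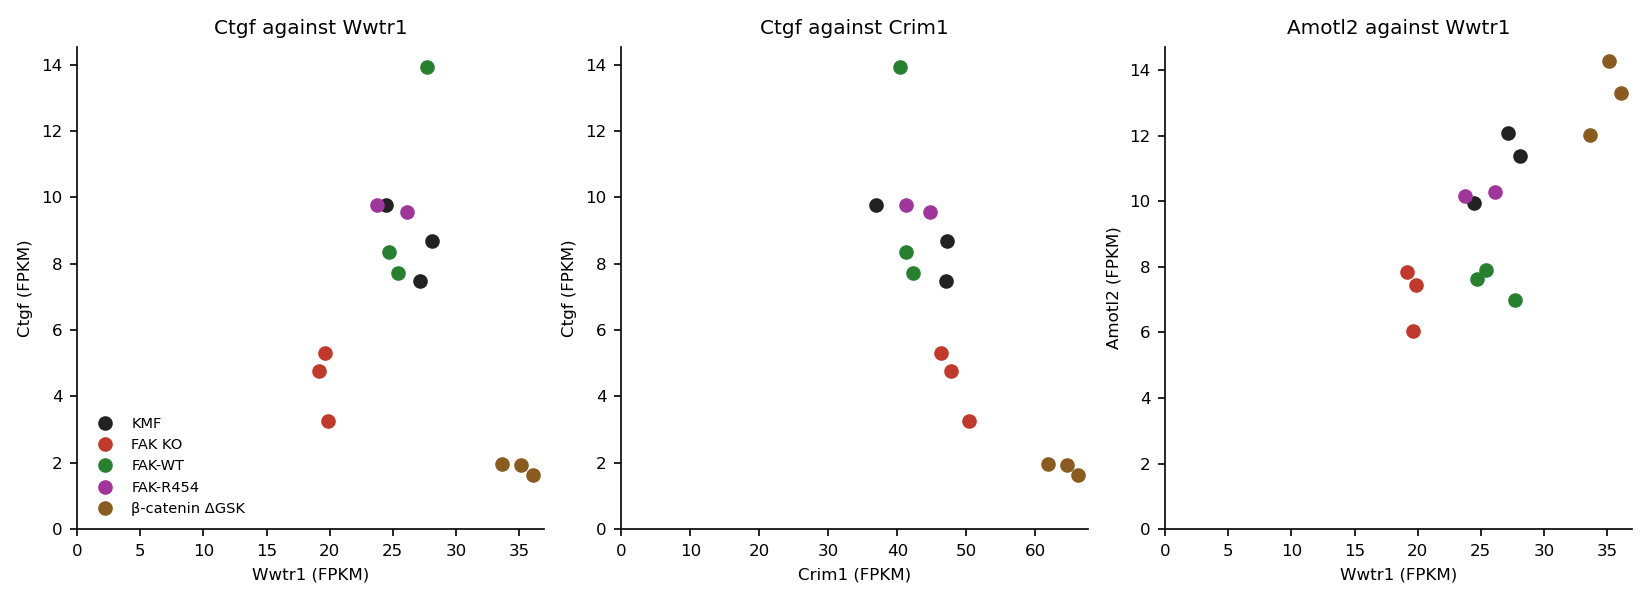
FPKM of 2 genes against each other in each of the 14 samples, colored by line, for Ctgf against Wwtr1, Ctgf against Crim1 and Amotl2 against Wwtr1. β-catenin ΔGSK samples hold the highest Wwtr1, from 33.6 to 36.1 FPKM, with the lowest Ctgf, from 1.64 to 1.98 FPKM, and FAK-WT samples combine parental-like Wwtr1 with Amotl2 between 6.98 and 7.89 FPKM.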

How the data were processed

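Poly(A) RNA of 14 tumorsphere samples was sequenced as 150-base paired-end reads. The authors deposited 1 table of FPKM per gene, which is their own normalization by gene length and by fragments per library. The study's methods name TopHat2, whereas the submitters' processing notes list STAR 2.5, CASAVA 1.8, DESeq2 and the mm10 build; the program that gave FPKM and its use of strand are not given in the sources used here, so reads of overlapping antisense genes cannot be told apart. FPKM multiplied by gene length gave whole fragments for 100% of values (tolerance 0.01), from which depth was read. Each gene's precision is limited by these fragments.

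Pairs of lines were compared with limma 3.58.1 (R 4.3.3) on log2(FPKM + 0.1), which understates changes of low genes, over genes with mean FPKM above 1 in at least 1 of both lines. Genes with a Benjamini-Hochberg adjusted p under 0.05 over all genes tested were called. An exact permutation test of 3 against 3 samples cannot go below 0.1. The study's methods describe KMF RNA taken at several passages; separate cultures are not stated for the other lines, so p-values measure the spread between these samples, which may be technical. Likeness is Pearson's r of log2 values, with the 3 most alike genes named for Yap1, Wwtr1, Ctgf and Cyr61. In each list up to 2 called genes per direction with the largest change were eligible to be named. The TEAD factors and Amotl1 were named beyond this rule. The members and lists were chosen with earlier results of these data known. Alternatives covered the pseudocount, the low-value filter, median-of-ratios scaling, the variance trend, 1 fit of all lines, a replicate block, limma-voom on recovered fragments, chromosome centring and leaving out single samples. The fit was also run on simulated data in which every gene had the same small dispersion. In the real samples the SD reached 34.1% of a line mean for Ctgf and 32.0% for Ankrd1. That run therefore gives no error rate for these data. Figures were drawn with matplotlib 3.10.9.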

Additional observations from a re-analysis of the deposited data

How the results depend on the processing

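Of 933 fold changes of the 10 genes under the alternatives, 833 kept their direction and their side of the threshold, 38 lost a call, 35 gained one and 27 changed sign. The number of members called in FAK-R454 versus FAK KO was 3, where 2325 of 11818 genes were called. It was 6 with 1 fit of all 5 lines (2085 genes in all) and 6 with limma-voom on recovered fragments (2770 genes in all). Leaving out single FAK KO samples gave up to 5, with 1178 to 4390 genes called in all, and fits with 1 FAK-R454 sample called fewer members. In FAK-WT versus FAK-R454 3 members were called, where 921 of 11782 genes were called. Leaving out single FAK-WT samples gave 0 to 5 members, with 157 to 3312 genes called in all. In the other 4 comparisons the count stayed within 1.5 times. The cause was not tested.

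Replicate numbers were taken as pairs only where a comparison had at least 3 pairs and every r between the deviations of same-numbered samples was over 0.1. None met this (mean r between -0.10 and 0.27), although all 3 pairs were positive in β-catenin ΔGSK versus FAK KO (0.0759 to 0.445) and in FAK-WT versus KMF (0.0229 to 0.128). With the replicate block, 5 members were called in FAK-WT versus FAK-R454, all lower in FAK-WT cells. The same fit called 3393 of 11782 genes in all, against 921 in the main fit. It leaves FAK-WT sample 3 without a partner, so that its fold changes (-0.26 for Ctgf) are those without that sample. The block also added calls of Ankrd1 in FAK KO versus KMF (adjusted p = 0.0322) and FAK-R454 versus FAK KO (adjusted p = 0.0240), and with it Axl in FAK KO versus KMF (adjusted p = 0.0503) and Lats2 in FAK-WT versus KMF (adjusted p = 0.0852, all limma) were not called.

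Chromosome centring turned the sign of Cyr61 in FAK KO versus KMF (0.11) and FAK-WT versus KMF (0.18), of Wwtr1 in FAK-WT versus KMF (0.29), of Axl in FAK-WT versus FAK KO (-0.10), FAK-R454 versus FAK KO (-0.050) and FAK-WT versus FAK-R454 (-0.064), and of Ctgf in the last of these (0.018). Ctgf there, at 0.00, was also 0.0024 with a pseudocount of 1, 0.040 with median-of-ratios scaling and 0.011 with limma-voom. Lats2 in β-catenin ΔGSK versus FAK KO was 0.024 with median-of-ratios scaling. Leaving out single samples turned the sign of fold changes that were not called: in FAK-WT versus FAK KO Cyr61 ran from -0.048 to 0.11 and Amotl2 from -0.029 to 0.16; in FAK-R454 versus FAK KO Axl from -0.0024 to 0.079; in FAK-WT versus FAK-R454 Wwtr1 from -0.010 to 0.12, Ctgf from -0.26 to 0.16, Axl from -0.0065 to 0.030 and Crim1 from -0.12 to 0.0049; and in FAK-WT versus KMF Wwtr1 from -0.090 to 0.0084, Ctgf from -0.10 to 0.33, Ankrd1 from -0.16 to 0.027 and Ajuba from -0.0021 to 0.11. Ankrd1 and, in β-catenin ΔGSK cells, Ctgf rest on as few as 70 and 116 fragments, and the part of depth in their spread was not tested.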
